A study of Homo sapiens with 4 samples.

Results

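The 57 genes described here repair damaged DNA or signal its presence, and they were taken as a fixed list of names that covers the checkpoint and 7 groups of repair genes. All 57 were found on the array, as 57 of the 19102 genes and 77 of the 34127 probes it holds. All 77 probes were well above background on all 4 arrays, so no member was lost to the filter on dim probes that left 14556 genes for testing. The rule for the list did not use any measured value, although it was chosen with earlier results of these data known.

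The RNA came from PC3, an established line of androgen-independent prostate cancer cells, infected for 48 h with a lentivirus that carried either an shRNA against ALKBH3 or a control shRNA against GFP, and then selected with puromycin. Cells were collected after 48 h or 96 h of selection, and every pairing of an shRNA with a time was hybridised to a single-colour Agilent array of its own, 4 in all. All groups share the infection, the selection and the growth medium. Nothing but the second time point repeats an shRNA, so the p-values below measure only the spread between these 4 arrays, and neither the ALKBH3 construct nor the number of cultures is given in the labels. Both arrays taken at a given time shared a slide, so slide and time point cannot be told apart. A change in bulk RNA may come from fewer cells of a kind or from less RNA per cell, and these cannot be told apart either.

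Epithelial keratins KRT8 and KRT18 and the adhesion genes EPCAM and CDH1 were well above background on all 4 arrays, and KLK3, which PC3 cells are known to express little, on none. Of the markers of blood cells, CD3E and CD68 had 1 probe each, above background on all 4 arrays, and PTPRC had 2 of 4 probes above it. The 75th percentile of intensity, on which each array was centred, lay between 2150 and 2395.

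ALKBH3 removes methyl groups from alkylated bases in single-stranded DNA and RNA. Cells meet other kinds of damage with separate pathways: base excision for small base lesions, nucleotide excision for bulky adducts, mismatch repair for replication errors, the Fanconi anaemia pathway for crosslinks, and homologous recombination or end joining for broken strands. The checkpoint kinases sense breaks and stalled forks and hold the cell cycle. Many recombination and crosslink repair genes are known to be transcribed mainly in cells that replicate their DNA, whereas excision repair genes are mostly expressed throughout the cycle.

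The targeted gene was examined first. On the log2 scale, relative to the 75th percentile of each array, the ALKBH3 probe used for the gene stood at -0.74 and -0.89 with control shRNA at 48 h and 96 h and at -2.48 and -2.41 with ALKBH3 shRNA. The other ALKBH3 probe stood at -0.63 and -0.61 with control shRNA and at -2.67 and -2.68 with ALKBH3 shRNA. Both probes were lower on both ALKBH3 shRNA arrays, in accord with the labels, and the log2 difference of the first was -1.63 (limma, adjusted p = 0.253 without and 0.0264 with the time point as a block).

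The first comparison asked whether repair and checkpoint genes differ in expression once ALKBH3 is depleted. They differed little in either direction. No member passed the 2-fold cutoff with an unadjusted p below 0.05, which 1.04% of all genes tested passed upwards and 0.234% downwards. No member passed an adjusted p below 0.05, and neither did any gene of the array (0%) in limma's fit without a covariate. One member, OGG1, had an unadjusted p below 0.05, as a lower value, against 3.63% of all genes lower, 4.7% higher and 8.33% in both directions. The log2 differences of the 57 members lay between -0.39 and 0.47 with a median of -0.006, beside -0.003 for all genes tested, and 28 were positive and 29 negative.

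By single time point, the members' log2 differences lay between -0.46 and 0.40 at 48 h and between -0.33 and 0.55 at 96 h. At 48 h and at 96 h alone, each value rests on 1 array against 1, by the brightest probe of a gene. There, 0 of 57 members were at least 1.5-fold higher or lower, whereas 5.1% and 4.43% of all genes were at least 1.5-fold higher and 1.99% and 2.08% lower. The median over members was -0.001 at 48 h and -0.014 at 96 h. The median size of the difference was 0.100 at 48 h and 0.107 at 96 h in the members, and 0.145 and 0.140 over all genes. In the mean of both times it was 0.091 in the members and 0.124 over all genes. The sign was positive at both times for 19 members and negative at both for 22, against 34.6% and 35.6% of all genes.

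**Figure D1:**
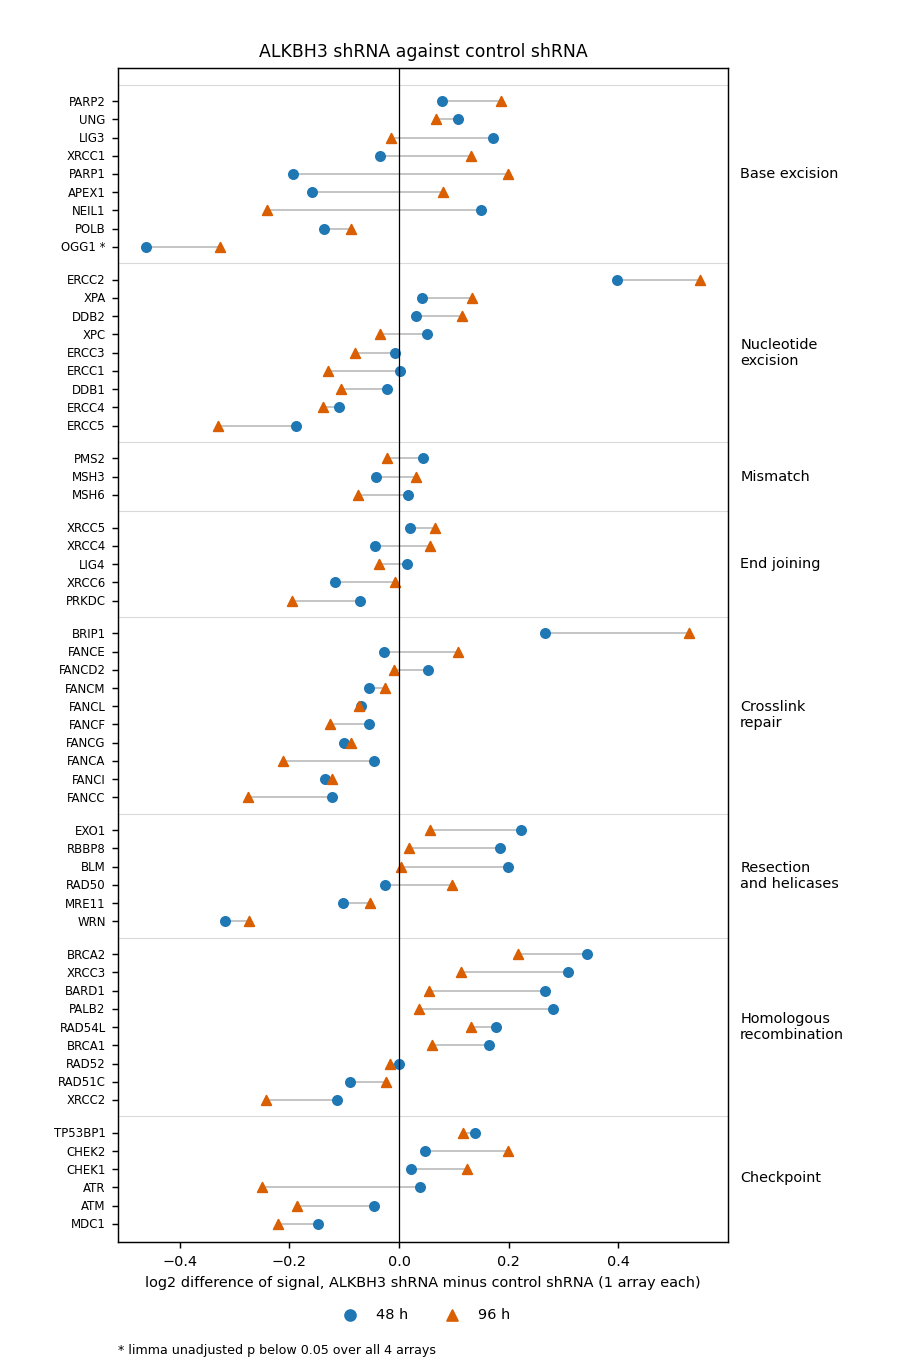
Log2 difference of signal between ALKBH3 shRNA and control shRNA for each of the 57 genes, grouped by pathway, at 48 h (circles) and 96 h (triangles), 1 array against 1 for each point, with an asterisk at OGG1, which had an unadjusted p below 0.05. The points lie on both sides of 0 in every group, ERCC2 and BRIP1 extend furthest to the right, reaching 0.55 and 0.53 at 96 h, and OGG1 lies furthest to the left, at -0.46 at 48 h.

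How large a difference could have gone unseen varied between members. The 95% interval of the log2 difference extended a median of 0.50 to each side in the fit without a covariate, and it lay within a 2-fold change either way for 51 of 57 members. Genes that differed strongly between the time points had the widest intervals, from -1.15 to 1.46 for RAD54L. With the time point as a block, it extended a median of 0.21 and lay within a 2-fold change for all 57 members. That fit gave 431 genes of the array higher (2.96%) and 218 lower (1.5%) at an adjusted p below 0.05, and no member among them, with 3 members higher and 3 lower at an unadjusted p below 0.05, against 13.4% and 11.7% of all genes. The 3 higher were BRCA2, BRIP1 and ERCC2, and the 3 lower were WRN, ERCC5 and OGG1.

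The arrays of the 2 shRNAs did not overlap for 3 members that were higher with ALKBH3 shRNA, TP53BP1, BRIP1 and ERCC2, and for 5 that were lower, ATM, FANCF, ERCC4, ERCC5 and OGG1. These are values of the brightest probe, and the second probe of ATM was higher with ALKBH3 shRNA at both times. Over all genes, 17.4% were higher and 19.1% lower without overlap.

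Base excision repair held OGG1, the member with the smallest p in the fit without a covariate. With the time point as a block, ERCC2 had the smallest. OGG1 is the glycosylase that removes oxidised guanine. Its signal read 0.28 and 0.24 with control shRNA at 48 h and 96 h and -0.18 and -0.09 with ALKBH3 shRNA. Both ALKBH3 shRNA arrays lay below both control arrays, with a log2 difference of -0.39 ± 0.11 (SE, 2 arrays against 2), or 0.761 times the control signal. In limma, the unadjusted p was 0.0219 and the adjusted p 0.495, and with the time point as a block the adjusted p was 0.0811. When any 1 array was left out, the difference stayed between -0.44 and -0.35 and its unadjusted p rose to between 0.0638 and 0.126. The second OGG1 probe gave -0.25.

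The other base excision genes stood near 0, with a median of 0.003 over the 9. PARP1, which binds strand breaks and marks them with ADP-ribose, stood at 2.94 and 2.45 with control shRNA at 48 h and 96 h and at 2.75 and 2.65 with ALKBH3 shRNA. The shRNAs overlapped and the order of the arrays turned between the times, with a log2 difference of 0.003. APEX1, the endonuclease that cuts at sites without a base, the scaffold XRCC1, the polymerase POLB, the ligase LIG3, the glycosylase UNG, which takes out uracil, the glycosylase NEIL1 and PARP2 lay between -0.11 and 0.13.

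Nucleotide excision repair held the widest range, from -0.26 to 0.47 around a median of -0.04. ERCC2, a helicase of the TFIIH complex, had the highest difference of the 57. Its signal was -2.08 and -1.75 with control shRNA at 48 h and 96 h and -1.68 and -1.20 with ALKBH3 shRNA. The ALKBH3 shRNA arrays were both above the control arrays, although 96 h with control shRNA and 48 h with ALKBH3 shRNA differed by only a small step, and the log2 difference was 0.47 ± 0.22 (SE, limma adjusted p = 0.687, 0.0623 with the time point as a block). Its second probe gave 0.38.

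ERCC5, the nuclease that cuts the damaged strand on its 3' side, stood at 0.59 and 0.44 with control shRNA and at 0.40 and 0.11 with ALKBH3 shRNA. Both values with ALKBH3 shRNA were below both with control shRNA, with a log2 difference of -0.26 ± 0.15 (SE, limma adjusted p = 0.767, 0.158 with the time point as a block). The damage sensors XPC and DDB2 differed by 0.008 and 0.07. XPA, ERCC1, ERCC3, ERCC4 and DDB1 lay between -0.12 and 0.09.

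In homologous recombination, 6 of 9 members were positive and the median was 0.15, the highest of the groups, with no member past an unadjusted p below 0.05. BRCA2, which loads the recombinase onto single-stranded DNA, stood at -4.85 and -4.27 with control shRNA at 48 h and 96 h and at -4.51 and -4.06 with ALKBH3 shRNA. It was higher with ALKBH3 shRNA at each time, but the shRNAs overlapped because the 96 h control array lay above the 48 h ALKBH3 shRNA array. The log2 difference was 0.28 ± 0.27 (SE, limma adjusted p = 0.900, 0.138 with the time point as a block). XRCC3, a recombinase paralogue, and BARD1, the partner of BRCA1, differed by 0.21 and 0.16, with overlap in both.

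BRCA1 itself, a ubiquitin ligase that directs break repair to recombination, stood at -1.98 and -1.07 with control shRNA and at -1.82 and -1.01 with ALKBH3 shRNA. The 2 arrays of a time point were close to each other and far from those of the other time. The shRNAs differed by 0.11 ± 0.42 (SE), a spread that takes in the change over time. With the time point as a block, the SE was 0.08 (limma adjusted p = 0.451). PALB2, RAD51C, RAD52, RAD54L and XRCC2 lay between -0.18 and 0.16.

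Crosslink repair had a median of -0.08, and 7 of its 10 members were negative. The exception in size was BRIP1, a helicase that binds BRCA1. It stood at -3.28 and -3.17 with control shRNA at 48 h and 96 h and at -3.01 and -2.64 with ALKBH3 shRNA. Both ALKBH3 shRNA arrays were above both control arrays, with a log2 difference of 0.40 ± 0.17 (SE, limma adjusted p = 0.657, 0.107 with the time point as a block). FANCD2, which is monoubiquitinated by the core complex at a crosslink, stood at -1.19 and -0.45 with control shRNA and at -1.14 and -0.46 with ALKBH3 shRNA, a difference of 0.02. Its dimmest probe, which did not stand for the gene, gave 0.07 at 48 h and 0.92 at 96 h, with a mean of 0.50. FANCC, of the core complex, differed by -0.20 with overlap, and the other 7 genes lay between -0.13 and 0.04.

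Among the checkpoint genes, the kinase ATM, which responds to double-strand breaks, stood at -1.91 and -1.94 with control shRNA at 48 h and 96 h and at -1.96 and -2.12 with ALKBH3 shRNA. The shRNAs did not overlap, but only by a small margin, and the log2 difference was -0.12 ± 0.12 (SE). The second ATM probe went the other way, by 0.11 at 48 h and 0.07 at 96 h, so no direction can be given for ATM. The kinase ATR, which responds to stalled forks, stood at 0.49 and 0.62 with control shRNA and at 0.52 and 0.37 with ALKBH3 shRNA. The ATR values overlapped, with a difference of -0.11. CHEK1, which acts below ATR, differed by 0.07, the ATM target CHEK2 by 0.12, and the break-site adaptors TP53BP1 and MDC1 by 0.13 and -0.18.

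In end joining, the Ku subunits XRCC5 and XRCC6, the kinase PRKDC, the ligase LIG4 and its partner XRCC4 lay between -0.13 and 0.04. The mismatch recognition genes MSH3 and MSH6 and the endonuclease PMS2 lay between -0.03 and 0.01, but PMS2 has near-identical pseudogene copies and its probes are uncertain. Of the resection genes and helicases, the helicase WRN stood at 0.11 and -0.24 with control shRNA and at -0.21 and -0.51 with ALKBH3 shRNA. Its values were lower with ALKBH3 shRNA at each time but overlapped across times, with a log2 difference of -0.30 ± 0.19 (SE, limma adjusted p = 0.799, 0.113 with the time point as a block). BLM, EXO1, RBBP8, MRE11 and RAD50 lay between -0.08 and 0.14.

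A further list of 60 repair genes outside the 57, which holds other polymerases, nucleases and checkpoint clamps, gave a like picture. All 60 were tested, and the median log2 difference was 0.008.

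The second comparison set 96 h against 48 h of selection, with the shRNA as a block. Here many members differed. With limma, 18 of 57 rose past an adjusted p below 0.05, against 5.84% of all genes tested, and 1 fell, XPA, against 6.94%. The 18 were 5 genes of recombination, 5 of crosslink repair, 3 of resection, 3 of base excision and the kinases CHEK1 and CHEK2. Of all members, 43 were higher at 96 h with both shRNAs and 10 lower with both, against 37% and 39.2% of all genes. The members' median log2 difference was 0.25, beside -0.006 over all genes. With control shRNA it reached 0.27 and with ALKBH3 shRNA 0.23.

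The calls depend on how the spread was estimated. Without the shRNA as a block, 0 of the 57 members and 0 of all genes passed, and with the dim probes kept in the fit 0 passed as well, although all 18 were higher in both. At an unadjusted p below 0.05 in limma, 25 members were higher and 2 lower without the block, against 9.42% and 8.98% of all genes. With the dim probes kept these were 27 and 2, against 16.6% and 10.8%. The 18 were among the higher in each. Slide and time point cannot be told apart in this comparison.

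**Figure D2:**
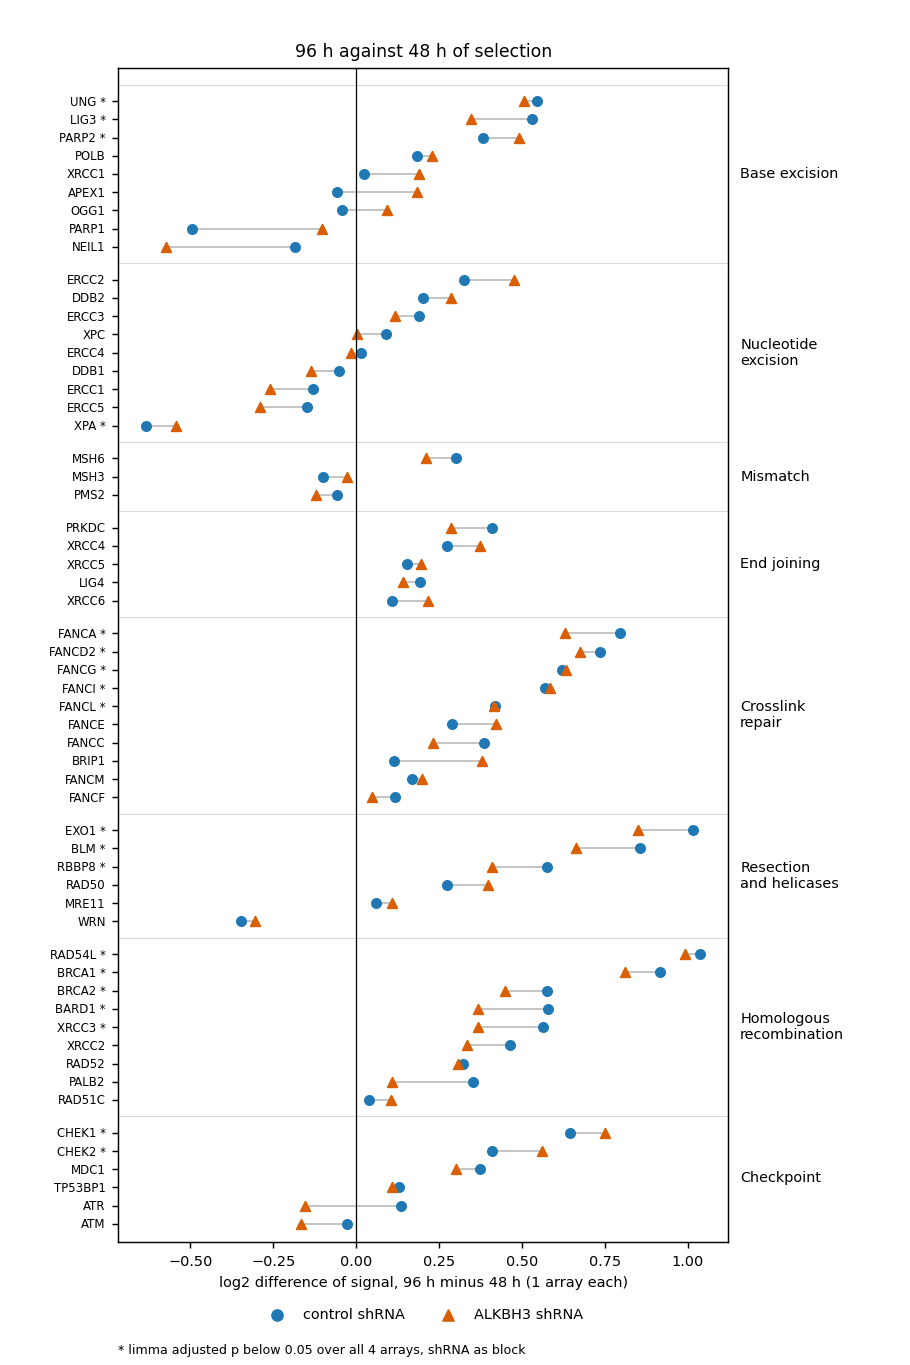
Log2 difference of signal between 96 h and 48 h for each of the 57 genes, grouped by pathway, with control shRNA (circles) and ALKBH3 shRNA (triangles), 1 array against 1 for each point. Asterisks mark the 19 genes past an adjusted p below 0.05. The points of homologous recombination, crosslink repair and end joining all lie to the right of 0. XPA lies furthest to the left with control shRNA, at -0.63, and stands at -0.54 with ALKBH3 shRNA, where NEIL1 lies furthest to the left, at -0.57.

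All 9 recombination genes were higher at 96 h and 5 of them rose past the threshold, with a median of 0.46 over the 9. RAD54L, a motor protein that remodels recombining DNA, was the highest of the 57. It stood at 0.35 and 0.53 at 48 h, with control and ALKBH3 shRNA, and at 1.39 and 1.52 at 96 h. Both 96 h arrays lay above both 48 h arrays, with a log2 difference of 1.01 ± 0.08 (SE, limma adjusted p = 0.0236), or 2.02-fold.

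BRCA1, with the values given above, was 0.86 ± 0.08 higher at 96 h (SE, limma adjusted p = 0.0236), or 1.82-fold, and neither 48 h array reached the 96 h arrays. BRCA2 rose by 0.51 (limma adjusted p = 0.0343), BARD1 by 0.47 and XRCC3 by 0.46. RAD52, which anneals single strands, XRCC2, PALB2 and RAD51C were between 0.07 and 0.40 higher and did not pass.

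Of the 6 resection genes and helicases, 3 rose. The exonuclease EXO1, which lengthens resected ends, stood at -0.69 and -0.47 at 48 h, with control and ALKBH3 shRNA, and at 0.32 and 0.38 at 96 h. The times did not overlap, with a log2 difference of 0.93 ± 0.09 (SE, limma adjusted p = 0.0236). The helicase BLM stood at -1.22 and -1.02 at 48 h and at -0.36 on both 96 h arrays. It rose by 0.76 (limma adjusted p = 0.0254), and RBBP8, which starts resection, by 0.49. WRN went the other way, lower by 0.33 in the log2 mean (limma adjusted p = 0.0631, not past the threshold) and lower with both shRNAs.

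All 10 crosslink repair genes were higher at 96 h with both shRNAs, and 5 rose past the threshold. These were FANCA, FANCG and FANCL of the core complex and both members of its substrate pair, FANCD2 and FANCI. FANCA stood at -2.30 and -2.34 at 48 h, with control and ALKBH3 shRNA, and at -1.50 and -1.71 at 96 h. The times did not overlap and the log2 difference was 0.71 ± 0.09 (SE, limma adjusted p = 0.0258). FANCD2 rose by 0.70, FANCG by 0.63, FANCI by 0.58 and FANCL by 0.42. FANCC, FANCE, FANCF, FANCM and BRIP1 were between 0.08 and 0.36 higher and did not pass.

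Of the checkpoint genes, the effector kinases rose and the apical kinases did not pass. CHEK1 stood at -1.26 and -1.24 at 48 h, with control and ALKBH3 shRNA, and at -0.61 and -0.49 at 96 h. The 48 h arrays were almost equal and both lay below the 96 h arrays, with a log2 difference of 0.70 ± 0.08 (SE, limma adjusted p = 0.0251). CHEK2 rose by 0.48. ATM and ATR gave -0.10 and -0.01, MDC1 0.34 and TP53BP1 0.12.

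In base excision, 3 of 9 members rose. UNG stood at 3.15 and 3.26 at 48 h, with control and ALKBH3 shRNA, and at 3.70 and 3.77 at 96 h, a log2 difference of 0.53 ± 0.08 (SE, limma adjusted p = 0.0303) without overlap. LIG3 and PARP2 rose by 0.44 each (limma adjusted p = 0.0492 and 0.0424). In a fit over probes, neither passed (limma adjusted p = 0.0561 and 0.0505). The glycosylase NEIL1 was lower by 0.38 in the log2 mean and did not pass (limma adjusted p = 0.108), and OGG1 gave 0.03.

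Nucleotide excision and mismatch repair had few changes. XPA, the scaffold that verifies damage in nucleotide excision, stood at -1.38 and -1.34 at 48 h, with control and ALKBH3 shRNA, and at -2.02 and -1.88 at 96 h. Both 96 h arrays were lower, with a log2 difference of -0.59 ± 0.08 (SE, limma adjusted p = 0.0284). A second XPA probe gave only -0.12 and did not pass in a fit over probes (limma adjusted p = 0.375). The 9 nucleotide excision genes had a median of 0.000, and the 3 mismatch genes of -0.06. ERCC2 was 0.40 higher (limma adjusted p = 0.0532), ERCC5 0.22 lower and DDB2 0.24 higher in the log2 mean, and none of these passed. Of the mismatch genes, MSH6 gave 0.26, MSH3 -0.06 and PMS2 -0.09.

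All 5 end joining genes were higher at 96 h with both shRNAs and none passed, from 0.16 for XRCC6 to 0.35 for PRKDC, with a median of 0.17.

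**Figure D3:**
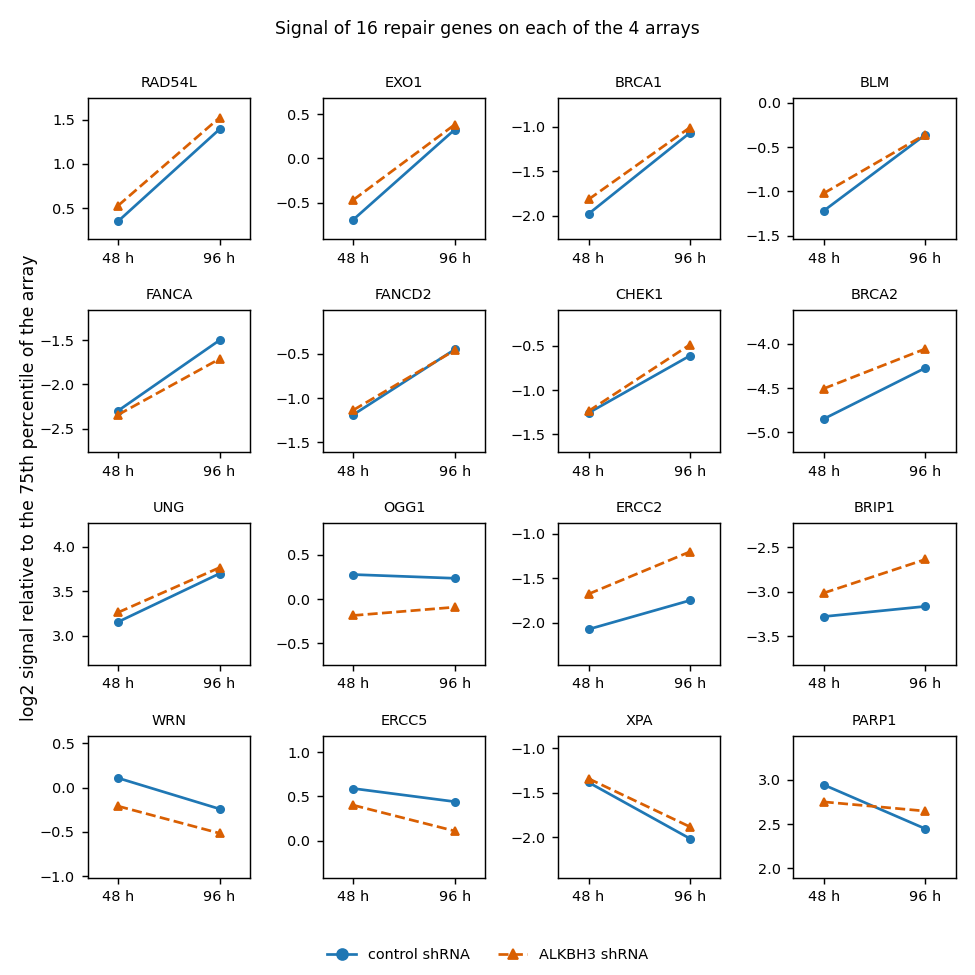
Log2 signal of 16 genes relative to the 75th percentile of the array, at 48 h and 96 h, with control shRNA (circles, solid line) and ALKBH3 shRNA (triangles, dashed line), 1 array for each point. Every panel spans the same range of log2 units around its gene. The lines of RAD54L, EXO1, BRCA1, BLM, FANCD2 and CHEK1 climb together, those of OGG1 stay apart and flat, and those of PARP1 cross.

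Proliferation markers moved with these genes. On a list of 15, which holds cyclins, mitotic kinases and replication factors, 15 rose at 96 h past an adjusted p below 0.05 in limma, with a median log2 difference of 0.74 and a range from 0.54 to 0.96. Over time their median reached 0.75 with control shRNA and 0.71 with ALKBH3 shRNA, and between the shRNAs it was 0.10. The proliferation antigen MKI67 stood at -1.72 and -1.86 at 48 h, with control and ALKBH3 shRNA, and at -0.79 and -1.32 at 96 h. Between the shRNAs MKI67 was the lowest of the 15, at -0.33, whereas 11 of the 15 were positive and 4 negative, up to 0.36. The part of proliferation in the rise of the repair genes was not tested. On the list of 60 other repair genes, 15 rose and 0 fell past the threshold, with a median of 0.22, among them the checkpoint mediator CLSPN at 0.88. At an unadjusted p below 0.05, 29 of the 57 members were higher and 3 lower, against 16.3% and 18.7% of all genes.

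Whether the change over time differed between the shRNAs could not be tested, because 4 arrays leave no residual degree of freedom for an interaction. As values, BLM (0.66 and 0.86), BARD1 (0.37 and 0.58) and PALB2 (0.11 and 0.35) rose less with ALKBH3 shRNA than with control shRNA. BRIP1 (0.38 and 0.11) and, by a small gap, CHEK1 (0.75 and 0.65) rose more with ALKBH3 shRNA. By the brightest probe of each gene, the widest gaps, in the same order, were those of PARP1 (-0.10 and -0.49), NEIL1 (-0.57 and -0.18) and ATR (-0.15 and 0.13).

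Different probes of a gene gave a measure of how far a value can be trusted. Of the 57 genes, 16 had more than 1 probe. The probes had the same sign in 11 of these 16 genes for the shRNA comparison, where most values lie near 0, and in 13 of 16 for time. The median spread between the probes of a gene was 0.11 and 0.10 log2 units. All 3 FANCD2 probes gave 0.70 to 0.71 over time, all 3 FANCA probes 0.40 to 0.76, and the CHEK2 probes 0.33 and 0.48. The dimmest FANCD2 probe stood at -6.19 and -5.91 with control shRNA at 48 h and 96 h and at -6.12 and -4.98 with ALKBH3 shRNA. Its rise was thus uneven between the shRNAs and did not pass (limma adjusted p = 0.102 in a fit over probes). PARP1 was the widest disagreement: its brighter probe gave -0.30 over time and its other probe 0.48, so no direction can be given for it. In limma's fit over probes, the other PARP1 probe passed (adjusted p = 0.0410) and the brighter did not (adjusted p = 0.176). FANCA probes differed in sign between the shRNAs (-0.13, -0.02 and 0.25). ATM probes differed in sign in both comparisons, with -0.12 and 0.09 between the shRNAs and -0.10 and 0.17 over time. FANCL, PMS2 and ERCC1 probes also differed in sign between the shRNAs, and ATR probes over time. When 77 probes were tested in place of genes, which was chosen after seeing the data, 16 rose and 1 fell past an adjusted p below 0.05 in limma, against 5.02% and 4.96% of all probes.

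**Figure D4:**
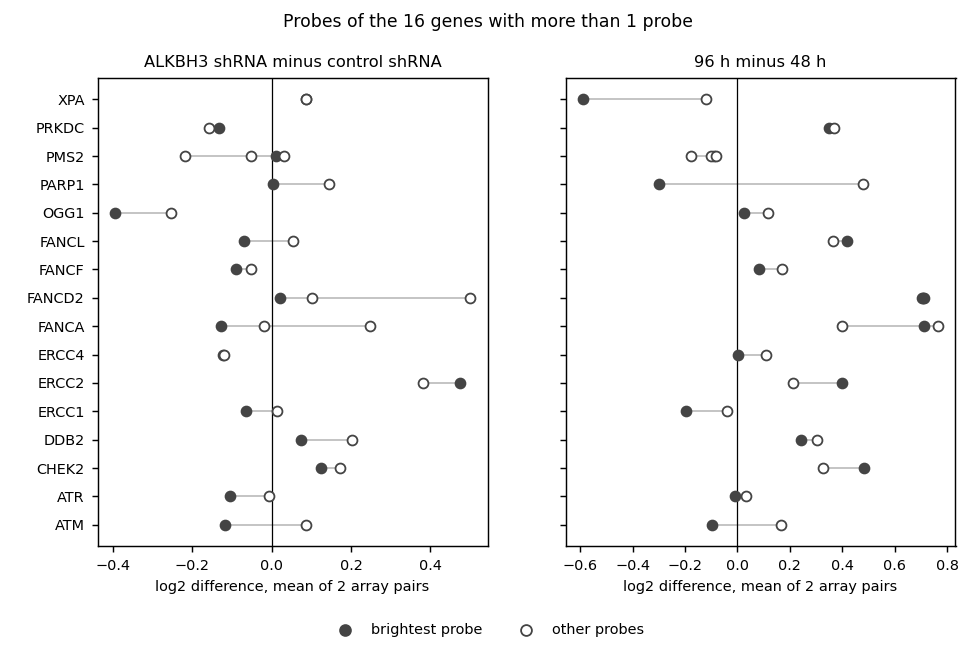
Log2 difference of each probe for the 16 genes with more than 1 probe, between the shRNAs (left) and between the times (right), each the mean of 2 array pairs. Filled circles are the brightest probe, which stands for the gene, and open circles the others. OGG1 and ERCC2 keep their side of 0 with both probes on the left, and PARP1 and XPA show the widest gaps on the right, 0.78 and 0.47.

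The promoters of the members were then read for the motifs of cell cycle factors, because the genes that rose over time moved together. RefSeq promoters of GRCh38.p14, from 250 bases before to 50 after the start site, were found for 52 of 57 members and for 27305 genes in all, and were searched on both strands. An E2F motif (TTTGGCGC, TTTCCCGC or TTTGGCGG) was present in 3.5% of all genes and in 8 of the 52 members (15.4%). Of these 8, only FANCD2 was among the 17 members with a promoter that rose at 96 h, and the others were DDB2, FANCC, MSH3, MSH6, XPC, XRCC2 and XRCC6. Of the 13 proliferation markers with a promoter, which also rose, only 1 held these E2F letters (7.69%), TYMS. A CCAAT box was present in 39.7% of all genes, 53.8% of the members and 8 of the 17 that rose (47.1%). The CHR motif (TTTGAA) was present in 18.2% of all genes, 15.4% of the members and 1 of those 17, UNG, and in 6 of 13 proliferation markers. The interferon response motif (TTTC, then 2 bases of any kind, then TTTC) was present in 4.38% of all genes and 0 of 52 members. A match is a stretch of letters and not a site shown to be bound, and a promoter without a match lacks only these letters in this window.

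Promoters of 3 members show the range, each as 150 bases 5' to 3' on the strand of its gene with the motif in capitals. FANCD2 rose by 0.70 and holds an E2F motif, on the other strand, across its start site, at chr3:10026293-10026442. RAD54L rose most and holds no exact match to the E2F letters searched, and its capitals mark a CCAAT box on each strand, at chr1:46247613-46247762. MSH3 holds an E2F motif, at chr5:80654502-80654651, and stood at -0.99 and -1.03 at 48 h and at -1.09 and -1.06 at 96 h.
FANCD2: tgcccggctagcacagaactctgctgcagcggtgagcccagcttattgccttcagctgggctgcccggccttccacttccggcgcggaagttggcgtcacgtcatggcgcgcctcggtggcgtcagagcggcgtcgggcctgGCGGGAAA
RAD54L: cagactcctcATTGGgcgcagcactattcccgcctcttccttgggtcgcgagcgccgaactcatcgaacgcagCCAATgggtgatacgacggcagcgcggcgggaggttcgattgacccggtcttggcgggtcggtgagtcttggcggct
MSH3: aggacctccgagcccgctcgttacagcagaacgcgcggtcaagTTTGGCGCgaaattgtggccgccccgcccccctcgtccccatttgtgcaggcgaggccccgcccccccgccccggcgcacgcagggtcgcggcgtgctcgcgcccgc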

How the data were processed

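Per the file headers, Agilent Feature Extraction (version 10.7.3.1) had made the deposited spot intensities by subtracting background on each array alone. The authors also deposited log2 values normalized between arrays, used here as an alternative, and the methods name limma for that step. Spots marked as non-uniform or as outliers were removed. Log2 intensities were centred on each array's 75th percentile and averaged per probe. A probe was tested when at least 0.5 of its spots were well above background on both arrays of an shRNA, and the brightest tested probe stood for a gene. Probes were named by accession through the RefSeq table of GRCh38.p14 (24910 of 34127). Fits were run with limma 3.58.1 in R 4.3.3, with Benjamini-Hochberg adjustment over 14556 genes, and the script was tested on simulated data.

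The shRNAs were compared without a covariate, with the time point as a block as an alternative, and the times with the shRNA as a block. Deviations of the same time point correlated between the shRNAs (r = 0.703 across genes), and the labels give the pairing by time. Values in full were given to members with an unadjusted p below 0.05 between the shRNAs, the 5 highest and 5 lowest in each comparison with 1 sign throughout, and the core genes of each pathway; others named singly were chosen after their values were seen. The members and lists were chosen with earlier results of these data known. Some genes of the marker and further repair lists are not reported here.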

Additional observations from a re-analysis of the deposited data

Results flagged for a closer look

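The difference between the shRNAs took opposite signs at the 2 time points for NEIL1 and PARP1. NEIL1, a glycosylase for oxidised bases, stood at 0.15 at 48 h and at -0.24 at 96 h (log2, ALKBH3 shRNA minus control shRNA), and the brighter probe of PARP1 at -0.19 and 0.20. The other PARP1 probe gave 0.17 and 0.12, with the same sign at both times. Other members described in full that turned sign had a value nearer 0 at one of the times. Each of these probes has 1 spot on an array and each value rests on 1 array against 1, so whether the time points differ was not tested.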

How the results depend on the processing

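No member passed the 2-fold cutoff or an adjusted p between the shRNAs under any of the 13 alternatives. With the time point as a replicate block, ALKBH3 itself passed (-1.63, limma adjusted p = 0.0264), as did 2.96% of all genes as higher and 1.5% as lower. The members' median between the shRNAs was -0.035 when arrays were centred on the median, 0.013 with the 75th percentile over probes above background everywhere, 0.0043 in the authors' values, and -0.12 to 0.14 with 1 array left out, which unbalances the time points. Over time, the members' median was 0.19 with normexp background correction and 0.30 with centring on the median. Members past the adjusted p over time numbered 0 with no filter on dim probes and 0 with no replicate block, from 19, and 15 to 27 under the others. The 15 came with probes in place of genes. Over all genes, 1860 passed in the main fit and 0 to 3605 in the alternatives fitted by gene, so these counts moved with the whole array. Of the 18 that rose, 13 passed with normexp, 13 in the authors' values and 17 after quantile normalization, and all 18 were higher in every alternative. FANCL, LIG3, RBBP8 and XRCC3 did not pass with normexp or in the authors' values. BRCA2 also failed with normexp, UNG in the authors' values, and XRCC3 after quantile normalization. XPA did not pass in the authors' values (-0.31), with the mean over probes (-0.35), with no filter or with no block. One array left out leaves the time fit no residual degree of freedom.

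Small differences turned sign. Between the shRNAs, XRCC5 was -0.063 with normexp and -0.063 in the authors' values, XPC -0.081 with normexp, -0.059 in the authors' values and -0.021 with centring on the median, FANCD2 -0.0080 and PARP1 -0.026 with the last. With 1 array left out, ranges were -0.13 to 0.45 for BARD1, -0.071 to 0.49 for XRCC3, -0.0079 to 0.57 for BRCA2, -0.30 to 0.45 for CHEK1, -0.35 to 0.57 for BRCA1, -0.35 to 0.39 for FANCD2, -0.056 to 0.14 for XRCC5, -0.036 to 0.052 for XPC, -0.070 to 0.22 for DDB2, -0.34 to 0.072 for PRKDC, -0.18 to 0.12 for MSH6, -0.24 to 0.25 for PARP1 and -0.37 to 0.0018 for MDC1. Over time, XRCC5 was -0.0036, XPC -0.12 and OGG1 -0.049 with normexp, and XPC -0.067 and OGG1 -0.026 in the authors' values. ATR was 0.0086 after quantile normalization, 0.046 with centring on the median, 0.0067 with the other percentile and 0.012 with the mean over probes, where PARP1 was 0.091 and ATM 0.035. With 1 array left out, ATR ranged from -0.15 to 0.13 and OGG1 from -0.042 to 0.093. The cause of these turns was not tested. Precision is limited throughout by there being only 4 arrays.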
